A study of Mus musculus with 2 samples.

Results

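The 8 genes described here are known from fetal and tumour tissue. They are the RNA-binding proteins Lin28a, Lin28b, Igf2bp1, Igf2bp2 and Igf2bp3, the chromatin proteins Hmga1 and Hmga2, and the cell-surface glypican Gpc3. The set was chosen by name, and each symbol matched 1 identifier among the 43346 mouse gene identifiers of both gene tables, so all 8 were found. The tissue was liver of C57BL/6J mice at day 18 of embryonic life (E18), from which poly(A)+ RNA was sequenced in 2 libraries of 1 group, labelled biological replicates 1 and 2. Per the labels, each library came from littermates of both sexes, from RNA longer than 200 nt after removal of ribosomal RNA, read as stranded 101-nt pairs with spike-in RNAs added. No mutation or treatment is labelled and no second age or tissue was measured, so levels are described within this tissue and no p-value is given. How many embryos went into each library is not given in the sources used here.

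Total expected counts (fragments shared out among genes by the authors' software) were 163766625 in replicate 1 and 139889938 in replicate 2. The libraries went against their label of both sexes. Xist, the RNA that coats the inactive X chromosome, had 157187 counts in replicate 1 and 41 in replicate 2, while 4 Y-linked genes summed to 8 and 18351. All 7 hepatocyte markers were above 1 TPM (a transcript level scaled for gene length and to a fixed total), which fits the labelled tissue, and of 6 pluripotency markers 0 reached 1 TPM. Pancreas acinar markers summed to 56.2 TPM in replicate 1 and 0.89 in replicate 2, and striated muscle markers to 18.7 and 7.31.

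LIN28 proteins bind the precursor of the let-7 microRNA and block its maturation, and let-7 in turn represses messenger RNAs that carry matches to its seed in the 3′ untranslated region (UTR), among them those of Lin28 and Hmga2. IGF2BP proteins bind target messenger RNAs, in part at methylated adenosines, and protect or store them. HMGA proteins bend AT-rich DNA and shape chromatin in growing cells, and glypican-3 is a heparan sulfate carrier on the cell surface that restrains body growth. Most of these genes are active in embryonic tissue, decline as the liver matures and return in liver tumours.

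Since let-7 links most of these genes, its mature sequences are shown first, with the seed (bases 2 to 8) in capitals. RefSeq (build GRCm38.p6) lists 9 mature names of this family from 11 genes, and all 9 hold the seed GAGGUAG. The 3 shown differ only outside it.
mmu-let-7a-5p: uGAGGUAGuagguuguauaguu
mmu-let-7g-5p: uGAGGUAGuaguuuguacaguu
mmu-miR-98-5p: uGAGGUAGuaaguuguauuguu
Mature microRNAs are shorter than the RNA kept for these libraries, so let-7 itself was not measured.

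The 3′ UTR of the leading coding transcript of each gene (GENCODE M21, build GRCm38) was searched on its own strand for CTACCTC, the complement of the seed, counted as an 8-base match where an A follows (CTACCTCA). Of the 8 genes, 7 held at least 1 match, where 8.58% of 16440 genes with a 3′ UTR did. More than 1 match was found in 4 of the 8 and in 1.00% of all genes. The set was chosen by name and includes known let-7 targets, so a high share was built in and is no test. Of 24 other reported let-7 targets, 13 held a match. Hmga2, Lin28b and Igf2bp1 each held 4, Lin28a held 2, and Igf2bp2, Igf2bp3 and Hmga1 held 1 each. Gpc3 held 0 in a 3′ UTR of 359 nt. Longer UTRs hold more matches by length alone. Among UTRs within 10% of the length of that of Hmga2 (2977 nt), 15.0% held a match, and within 10% of that of Igf2bp1 (6337 nt), 38.2% did. Hmga2 had the densest matches, 1.34 per kb, against 0.0739 per kb over all genes. Windows of 22 nt ending at the match are shown for the first match of each gene and the second of Hmga2, with the match in capitals.
Lin28a match 1: cacagcctgttgaaCTACCTCA
Lin28b match 1: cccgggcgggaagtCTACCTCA
Igf2bp1 match 1: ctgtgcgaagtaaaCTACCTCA
Igf2bp2 match 1: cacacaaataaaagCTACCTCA
Igf2bp3 match 1: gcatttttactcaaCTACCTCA
Hmga1 match 1: tcctctgttcacaaaCTACCTC
Hmga2 match 1: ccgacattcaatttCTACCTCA
Hmga2 match 2: ccccactcctcaataCTACCTC
In the same order these windows lie at chr4:134005189-134005210, chr10:45381022-45381043, chr11:95961778-95961799, chr16:22059473-22059494, chr6:49086787-49086808, chr17:27563277-27563298, chr10:120364224-120364245 and chr10:120362988-120363009, on the minus strand except for Hmga1. The first matches of Hmga2 and Lin28b lie close to the stop codon, 21 and 36 nt after it. A match describes the sequence only and shows no binding.

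**Figure D1:**
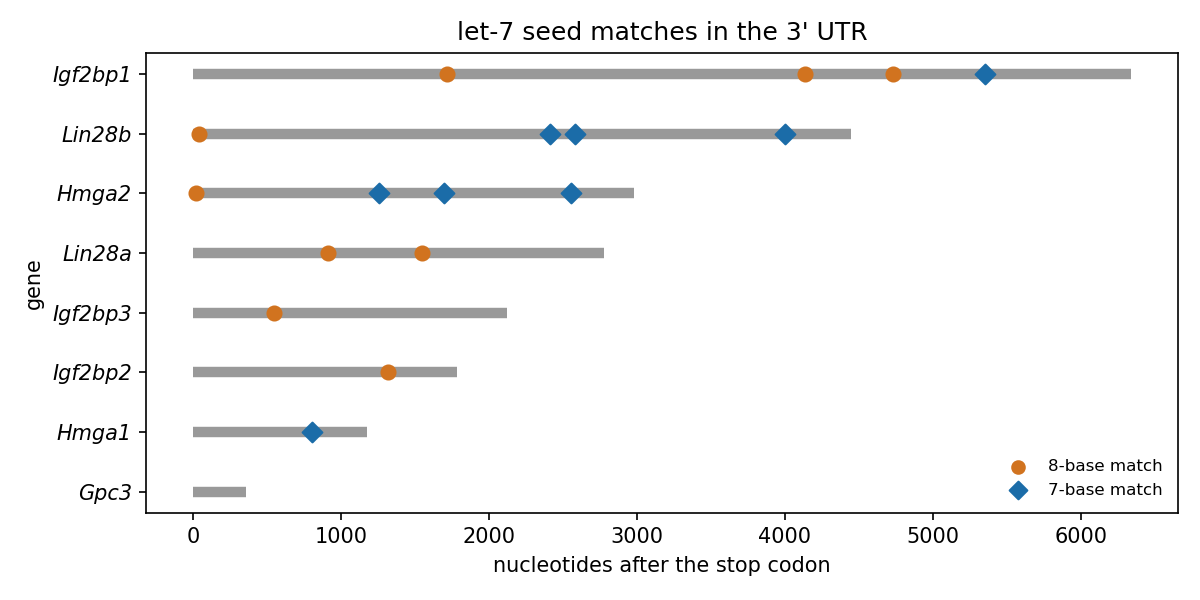
Positions of let-7 seed matches (x axis, nucleotides after the stop codon) along the 3′ UTR (grey bar, to its full length) of the leading coding transcript of each gene. Igf2bp1, Lin28b and Hmga2 carry 4 matches each, and Gpc3 has the shortest UTR and 0 matches.

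All 8 genes were at 1 TPM or more in both libraries, where 53.9% of 21474 protein-coding genes were. Gpc3 and Hmga1 stood far above the RNA-binding proteins and Hmga2. Gpc3 had 325 and 334 TPM in replicates 1 and 2, higher than 98.8% of protein-coding genes. Hmga1 had 69.9 and 78.9 TPM, higher than 95.3%. The other 6 were below 9.16 TPM, the median of the 11568 protein-coding genes detected in both libraries. In order, they were Igf2bp3, Igf2bp2, Lin28a, Lin28b, Igf2bp1 and Hmga2. The libraries of Lin28b and Igf2bp1 overlapped, as did those of Igf2bp1 and Hmga2, so the order within these pairs was not resolved. No other neighbours overlapped, although the place of Lin28a rested on 1 short transcript, described below. In whole liver, fewer cells with an RNA and less RNA per cell cannot be told apart. With 2 libraries, no likeness of pattern to other genes can be measured.

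**Figure D2:**
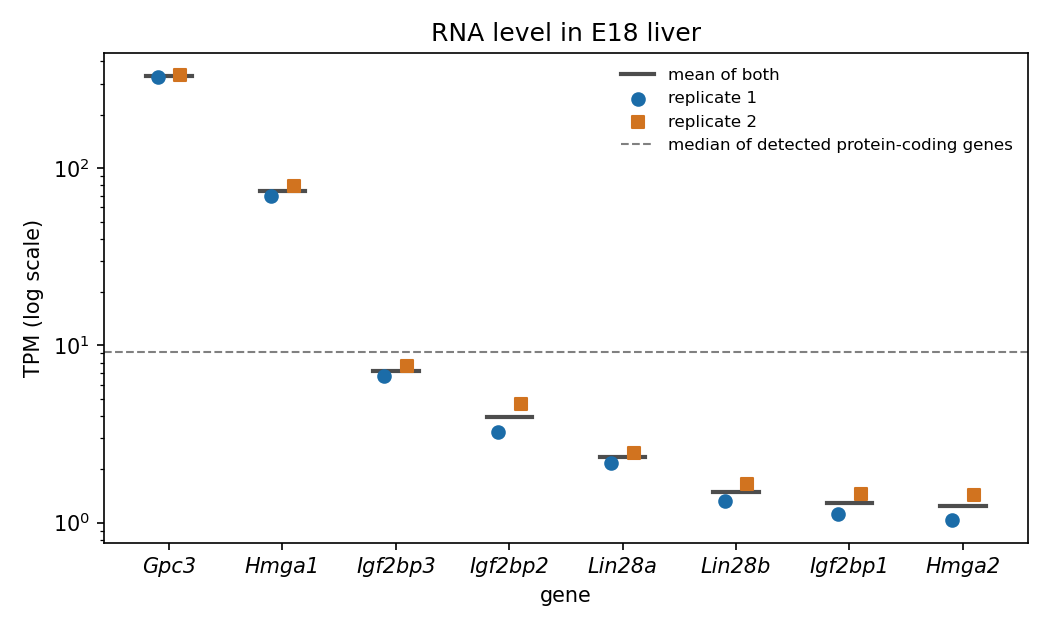
RNA level of the 8 genes (y axis, TPM on a log scale) in each library (points) with the mean of both (bars), beside the median of detected protein-coding genes (dashed line, 9.16 TPM). Gpc3 and Hmga1 lie above that median in both libraries and the other 6 genes below it.

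Lin28a (ENSMUSG00000050966.5, chr4:134003330-134018841) encodes the form of LIN28 best known from pluripotent cells, and Lin28b (ENSMUSG00000063804.7, chr10:45376620-45486395) its paralogue. Lin28a had 2.18 and 2.48 TPM (2.33 ± 0.212, SD, n = 2) from 615 expected counts in each library. Lin28b had 1.33 and 1.66 TPM (1.495 ± 0.233, SD, n = 2) from 1070 and 1108 counts. Lin28a was thus higher per length, with a Lin28b to Lin28a ratio of 0.640 ± 0.0419 (SD, n = 2). That order rested on Lin28a-202, a transcript of 394 nt that held 47.4% and 42.4% of the Lin28a TPM while receiving only 28.8 and 23.0 counts. Counting only transcripts of at least 1000 nt, Lin28a had 1.15 and 1.40 TPM, and the ratio turned to 1.17. On counts without length scaling it was 1.77. With the longer transcripts only, the libraries of Lin28b and Lin28a overlapped, so their order was not resolved there. The higher of these paralogues therefore changed with the short transcript and with length scaling.

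The reads of Lin28a did not reach the first 2 exons of its full-length transcript, Lin28a-201. The authors' contigs, stretches of stranded coverage over both libraries pooled on build mm9, carry a signal that is their mean coverage divided by 1 constant for the file. Of the 4 exons of Lin28a-201, exons 1 and 2 lay in no contig, exon 3 had a signal of 1.39 and exon 4, which holds the 3′ UTR, 1.28. Those first 2 exons hold 228 of 627 coding bases (36.4%), the start codon among them. For the other 7 genes, every exon of the leading coding transcript lay at least partly in contigs.

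Splice junctions showed the same limit. Junction reads are given by the authors on mm9 as a first and a second value, which are not tied to a replicate here. Across the intron between exons 3 and 4 of Lin28a there were 30 and 33 reads. Across the introns from exon 1 to 2 and from exon 2 to 3 there were 0 in both, and a count of 0 allows up to 3 reads each. Exon 3 was instead joined to places inside intron 2 by 27 and 20 reads, over 2 junctions absent from the authors' ENSEMBL 65 models. The larger of these, with 18 and 14 reads, spans 4160 nt, the length of the first intron of Lin28a-202. The highest contig of Lin28a outside those models (178 nt, signal 0.632, where the median outside exons was 0.0435) starts at the base after that intron, chr4:133568171-133568348 on mm9. In GENCODE M21, Lin28a-202 begins with a noncoding exon of 131 nt, and its coding sequence starts in the next exon. Its model stops early in the last exon of Lin28a-201, so most of the Lin28a reads were assigned by the authors to Lin28a-201 (586 and 591 counts).

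All 5 exons of Lin28b-201, its only quantified transcript, lay in contigs. The signal was 0.325 over exons 1 and 2, 0.275 over exon 3, 1.39 over exon 4 and 1.27 over exon 5. A contig that runs from an exon into an intron averages both, which lowers the value of the exon, and the contig over exons 1 and 2 does so. The 4 introns of Lin28b-201 had, from the 5′ end, 17 and 15, 12 and 7, 18 and 23, and 43 and 44 reads. An upstream exon was also joined to exon 2, by 12 and 7 reads over a listed intron of 7129 nt. It is not a first exon, since the same model lists a further intron upstream of it, of 9031 nt, with 5 and 0 reads. Other reads left exon 2 for places short of exon 3. A listed intron of 10133 nt had 11 and 10 reads, more in sum (21) than the 19 that joined exons 2 and 3, and an unlisted one of 5375 nt had 12 and 0. Each intron of Lin28b-201 was thus crossed by reads, but reads out of exon 2 were divided among several partners.

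**Figure D3:**
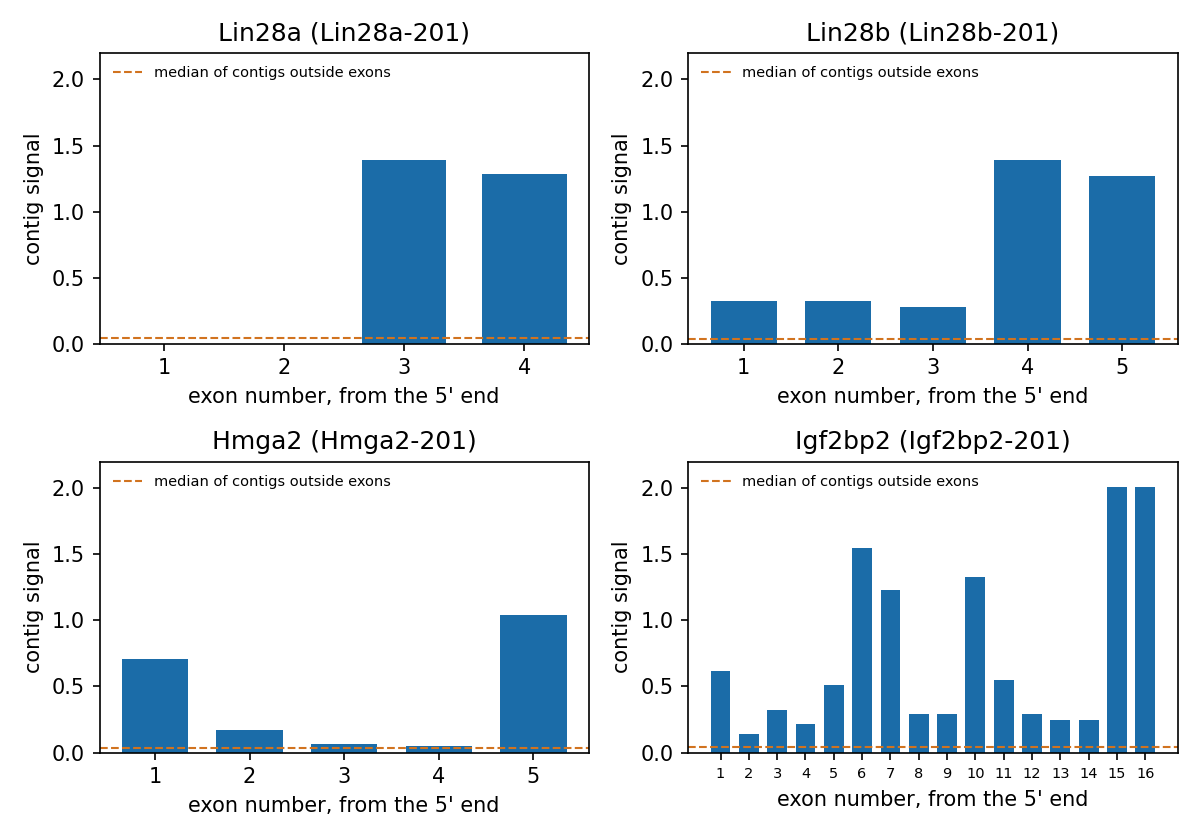
Signal of the authors' contigs over each exon (y axis, mean coverage on the authors' scale, libraries pooled, mm9) of the leading coding transcript of 4 genes, by exon number from the 5′ end, with the median of contigs outside exons as a dashed line. Exons 1 and 2 of Lin28a are at 0, exons 3 and 4 of Hmga2 lie near the dashed line, and Lin28b and Igf2bp2 have signal over every exon.

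Genes that act on let-7 around LIN28 were mostly present. Of 18 genes of let-7 processing and turnover, 17 had a mean of at least 1 TPM, with a median of 10.5 TPM. For this and the later gene lists, the share to set beside is 53.9% of protein-coding genes. That share asks for 1 TPM in both libraries, a stricter rule than the mean. The lists were chosen by name, so a high count is no test. Tut4, a uridylyltransferase that LIN28 recruits to the let-7 precursor, had 35.9 and 51.4 TPM, many times the level of either Lin28 gene. Of 6 listed genes that host let-7, 4 were found and 3 reached 1 TPM. Of 24 other reported let-7 targets, 22 did, with a median of 5.73 TPM. The growth regulator Myc, one of them, had 18.9 and 28.8 TPM.

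The 3 Igf2bp paralogues were ordered Igf2bp3, Igf2bp2, Igf2bp1, and their libraries did not overlap. Igf2bp3 (ENSMUSG00000029814.8, chr6:49085223-49214957) had 6.76 and 7.66 TPM (7.21 ± 0.636, SD, n = 2). Igf2bp2 (ENSMUSG00000033581.12, chr16:22059009-22163299), the paralogue that adult tissues are known to retain, had 3.24 and 4.64 TPM (3.94 ± 0.990, SD, n = 2). Igf2bp1 (ENSMUSG00000013415.5, chr11:95957163-96005940) had 1.12 and 1.45 TPM (1.29 ± 0.233, SD, n = 2). Within each library, Igf2bp3 was 5.66 ± 0.532 times Igf2bp1 and 1.87 ± 0.308 times Igf2bp2, and Igf2bp2 was 3.05 ± 0.217 times Igf2bp1 (SD, n = 2). Igf2bp3 led in all of these ratios, with the smallest lead over Igf2bp2.

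The lead of Igf2bp2 over Igf2bp1 lay mostly in transcripts that are not annotated as coding. Igf2bp2-207, a retained-intron transcript of 3267 nt, held 61.8% and 57.6% of the Igf2bp2 TPM. The coding Igf2bp2-201 held 20.8% and 15.6%, which is 0.67 and 0.72 TPM. Igf2bp1-201, by comparison, held 82.4% and 87.4% of the Igf2bp1 TPM, at 0.92 and 1.27 TPM, so the main coding transcript of Igf2bp1 was above that of Igf2bp2 in both libraries. Igf2bp3 was quantified as 1 coding transcript.

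Reads crossed every intron of the coding Igf2bp2-201, but each of these introns is also listed for other transcripts. The first intron of Igf2bp2-201, from the 5′ end, had 39 and 38 reads and its second, of 72135 nt, 23 and 30. Neither is listed for Igf2bp2-207, so these reads point to forms other than Igf2bp2-207. Both are listed for the retained-intron Igf2bp2-206, which held 3.61% and 4.28% of the Igf2bp2 TPM in replicates 1 and 2. They therefore do not single out the coding form. Every other intron of Igf2bp2-201 is listed for Igf2bp2-207 too, so reads there do not tell the coding form from Igf2bp2-207. The intron with the most reads was the last, with 152 and 124. The contig signal was uneven along the gene, lowest over exon 2 (0.138), 1.55 over exon 6, 0.244 over exons 13 and 14 and highest over exons 15 and 16 (2.01). Contigs that run into introns average both, so a low value here need not mean low exon coverage. For Igf2bp1, the 14 introns of Igf2bp1-201 were all crossed, with 16 and 19 reads over its longest. For Igf2bp3, 12 of 14 listed introns had reads. The other 2 had 0, but junctions 2 nt from them, with the offsets of both ends summed, had 187 and 151, and 217 and 168 reads. These junctions match in length introns of Igf2bp3-201 in GENCODE M21.

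Among genes around the IGF2BP proteins, all 8 partners found in their ribonucleoprotein particles were at 1 TPM or more (median 30.6 TPM), led by Hnrnpa2b1 with 240 and 274 TPM. All 15 writers, erasers and other readers of methylated adenosine were, too, with a median of 6.35 TPM. Ythdc1, a nuclear reader of that mark, had the highest mean, with 18.6 and 21.8 TPM, although Wtap was above it in replicate 1 (19.4 TPM); Igf2bp3 had a mean of 7.21 TPM beside them. Of 8 RNAs reported to be bound by IGF2BP proteins, 7 reached 1 TPM. They include Igf2 (2361 and 2447 TPM), the growth factor RNA for which the family is named, and H19 (9800 and 9562 TPM), an imprinted noncoding RNA.

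Hmga1 and Hmga2 differed by more than any other paralogues of the set. Hmga1 (ENSMUSG00000046711.11, chr17:27556497-27563674) had a mean of 74.4 ± 6.30 TPM (SD, n = 2) from 14737 and 13608 rounded counts. Hmga2 (ENSMUSG00000056758.10, chr10:120361275-120476469) had 1.03 and 1.44 TPM (1.24 ± 0.290, SD, n = 2) from 557 and 648 counts. The Hmga1 to Hmga2 ratio was 67.9 and 54.8. Hmga1b, a copy of near-identical sequence on chromosome 11 named here for that reason, was given 1.02 and 1.11 TPM. Reads shared between the copies leave the Hmga1 level uncertain.

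Hmga2 reads lay at both ends of the gene with few between. Hmga2-201, a coding transcript of 3710 nt, held 97.7% and 91.3% of its TPM. Its contig signal was 0.708 over exon 1, 0.174 over exon 2, 0.064 over exon 3, 0.051 over exon 4 and 1.04 over exon 5, which carries 42 coding bases and the 3′ UTR. Contigs of the gene outside exons had a median of 0.033, so exons 3 and 4, which hold 51 and 33 of 324 coding bases, were little above it. As for Lin28b, a contig that runs into an intron averages both, which can lower the value of an exon. Junction reads fell in the same way from the 5′ end. The first intron had 26 and 41 reads, the second 5 and 12, the third 0 and 1, and the fourth 2 and 1. Within exon 5 the contig of high signal (1.10) began 182 nt after the start of the exon. Most of the part before it lay in a contig of 0.114. Only 157 of the 345 nt of that contig lie in the exon, so its signal averages exon and intron. The first let-7 match of Hmga2, 66 nt into this exon, lies in that contig of low signal. The other 3 matches lie in the contig of high signal. Most of the pooled coverage of Hmga2-201 therefore lay in exon 1 and the 3′ UTR, and few reads joined its coding exons end to end.

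For the other genes whose last exon has 1 length in both builds, each let-7 match lay in the same contig as the rest of the UTR. The signal there was 1.30 for both of Lin28a, 1.27 for all 4 of Lin28b, 0.919 for all 4 of Igf2bp1, 2.01 for that of Igf2bp2 and 12.1 for that of Hmga1. Igf2bp3 could not be placed in this way.

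Hmga1 exists in a longer and a shorter protein form, which differ by 11 codons at the end of 1 exon. The 33 added bases are at chr17:27559671-27559703 on GRCm38, inside the coding sequence, and are shown in capitals after the last 10 bases of the shorter exon.
Hmga1 exon end: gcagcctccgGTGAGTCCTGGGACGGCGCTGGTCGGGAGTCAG
By the authors' transcript percentages, the 3 transcripts with the longer exon held 38.7% of the Hmga1 TPM in replicate 1 and 37.5% in replicate 2. Junction reads gave a smaller share. Of 410 reads from either exon end to the next exon in the first value, 27 came from the longer form (6.59%, exact 95% binomial interval 4.38 to 9.44). Of 400 in the second value, 16 did (4.00%, 2.30 to 6.41). These intervals cover counting error only. Junction reads were uneven along Hmga1. The next 2 introns, listed for 6 transcripts each, had 34 and 46, and 38 and 42 reads. An unlisted junction near the last of them had 33 and 23. Contig signal went the other way, with 1.44 over exons 1 and 2 and 12.1 over exons 3 and 4. The junction share is therefore uncertain beyond its interval. The 2 measures of the share come from separate processing on 2 builds, and the shorter form was the larger in both.

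**Figure D4:**
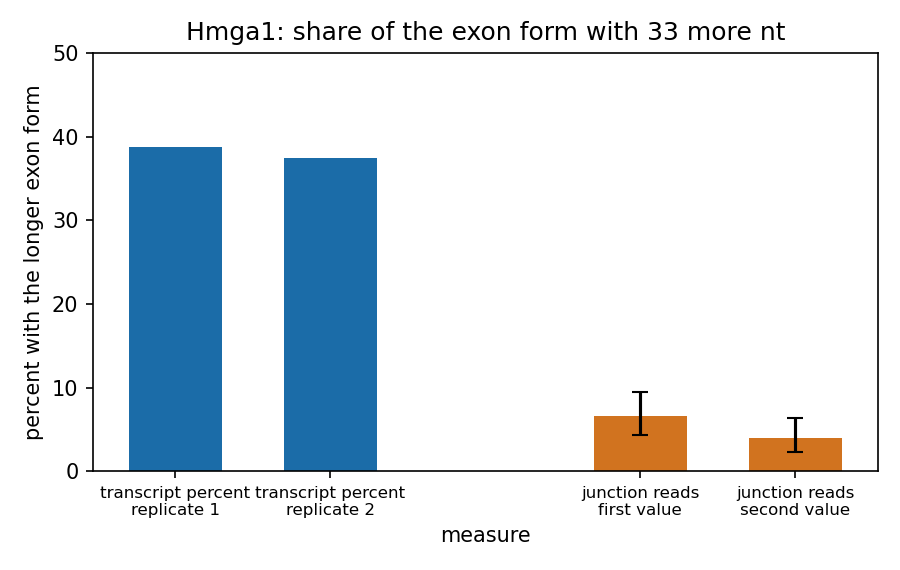
Share of the Hmga1 exon form with 33 more bases (y axis, percent) by transcript percentages in each replicate (blue) and by junction reads in each of the authors' values (orange, with exact 95% binomial intervals). The transcript percentages are 38.7 and 37.5, and both junction intervals end below 10.

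Of 8 other high mobility group genes, 7 reached 1 TPM, with a median of 53.1 TPM. Hmga1 lay between Hmgb2 (105 and 108 TPM) and Hmgb3 (62.3 and 66.5 TPM) in both libraries, and Hmga2 was below all 7 that reached 1 TPM.

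Gpc3 (ENSMUSG00000055653.9, chrX:52272426-52613950) was the highest of the 8, with 330 ± 6.47 TPM (SD, n = 2) from 98423 and 82595 counts. It exceeded the 14.0 and 17.1 TPM of all other glypicans summed by 21.4 ± 2.66 times (SD, n = 2), and Gpc4, the next, had 7.92 and 9.36 TPM. Gpc3-201, the full-length coding form, held 83.9% and 76.8% of its TPM. Gpc3-202, which ends after 5 of the 8 exons, held the other 16.1% and 23.2%. All 7 introns of Gpc3-201 were crossed by reads, 9110 to 25545 each over both values summed. Gpc3 is X-linked and the libraries differed in sex-linked RNA, yet its log2 ratio of replicate 2 over replicate 1 was -0.09, where 461 X-linked genes had a median of -0.02.

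Of the genes around glypican-3, 9 of 12 heparan sulfate enzymes and release factors were at 1 TPM or more (median 2.56 TPM), with the sulfotransferase Hs6st1 highest at 33.4 and 40.5 TPM. Notum, which cleaves glypicans from the membrane, had 0.22 and 0.23 TPM. Of 10 hedgehog genes, a pathway that glypican-3 restrains, 4 reached 1 TPM, led by the ligand Ihh with 7.13 and 7.07 TPM. Among 12 other oncofetal and fetal growth genes, 11 did, and Afp, the fetal serum protein, had 12676 and 13893 TPM.

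On counts scaled by TMM, 0 of the 8 genes were beyond 2-fold between the libraries, where 272 of 14956 genes tested were (1.82%). At so small a share, a count of 0 among 8 genes says little about the set. Of the genes of the pathway lists with counts enough to be tested, 0 were beyond 2-fold. Of the 8, 7 were higher in replicate 2, where 50% of all genes tested were. On the ratio of TPM all 8 were higher, Gpc3 by 0.04 on the log2 scale, but there the median of all genes tested was itself 0.11. On mm9 RPKM, the first and second values were more than 2-fold apart for Igf2bp2 (1.33 and 0.494), Hmga2 (0.660 and 0.252) and Igf2bp1 (0.695 and 0.298). Those of the other members were closer. The median log2 ratio of second over first there was -0.42, over 13049 genes at 0.2 RPKM or more in both. On scaled counts, the log2 ratio of replicate 2 over replicate 1 was 0.38 for Hmga2, 0.34 for Igf2bp1, 0.29 for Igf2bp2, 0.22 for Lin28b and 0.17 for Lin28a. It was 0.07 for Igf2bp3, 0.05 for Hmga1 and -0.09 for Gpc3, while the median size of the ratio over all genes tested, whatever its sign, was 0.14. The 5 genes past that size are those of the low range, with counts between 557 and 1578.

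Gene length moved with this ratio. In the 10 groups of genes by length, the median ratio ran from -0.07 in the shortest to 0.11 in the longest, and Lin28b and Igf2bp1 are in the longest. Less the median of its length group, the ratio was still above 0 for 7 of the 8, at 0.35 for Hmga2, 0.27 for Igf2bp2 and 0.23 for Igf2bp1, and at 0.0043 for Igf2bp3. Some cell type markers also differed: neutrophil markers were higher in replicate 2 in 6 of 6 and B lymphoid markers in 0 of 6. Over all genes tested the share was 50%. Hepatocyte markers were higher there in 2 of 7, erythroid in 1 of 6 and cholangiocyte in 1 of 5. Nearer the share of all genes were stem and progenitor (4 of 7), stellate and mesenchymal (5 of 8) and endothelial markers (3 of 6). The part of cell types in the differences of the 8 genes was not tested.

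**Figure D5:**
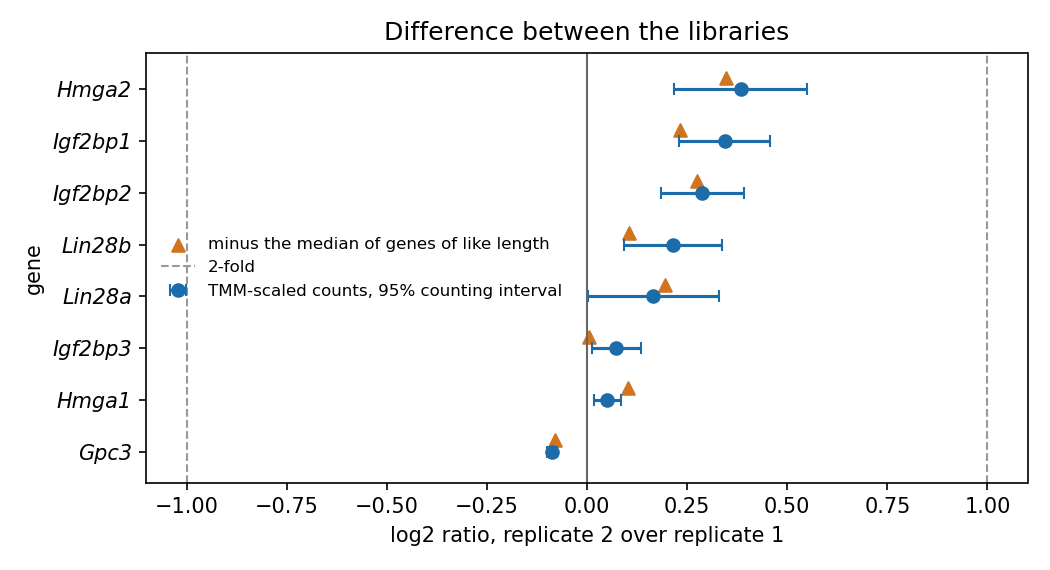
Log2 ratio of replicate 2 over replicate 1 (x axis) for each gene, on TMM-scaled counts with 95% counting intervals (circles) and less the median of genes of like length (triangles), with dashed lines at 2-fold. Hmga2 is the highest at 0.38, Gpc3 the lowest at -0.09, and all lie inside the 2-fold lines.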

How the data were processed

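Per the headers and the notes deposited with each sample, the authors quantified each library on mm10 with GENCODE M4. The deposited tables hold an expected count per gene, TPM, FPKM (fragment density per kilobase and depth, used only as an alternative) and the percent of a gene's TPM held by each transcript. Per the file headers, the authors' mm9 tables hold RPKM values, a junction read count for each of 2 values, and a pooled contig signal. Within 1%, coverage per unit of that signal was constant in 99.99% of the 44019 contigs at a signal of 1 or more. Neither aligner nor quantifier is given in the sources used here. The mm9 values carry no replicate label and were not tied to replicates here. Xist had an RPKM of 0.0362 and 27.0 in the first and second value, but 9814 and 1 junction reads. By Xist, which was high in replicate 1, the second RPKM value and the first junction value resemble replicate 1, so the orders are opposite.

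Symbols and mm10 models came from GENCODE M21 (42462 of 43346 identifiers matched). No coordinate was converted between builds. A let-7 match was placed on mm9 by its offset in a last exon of equal length. Spike-ins (2.79% and 2.01% of counts) and other rows without a mouse gene were left out. Expected counts were rounded and scaled by TMM in edgeR 4.0.16 (R 4.3.3), with DESeq2 1.42.0 size factors as an alternative. The log2 ratio used scaled counts plus 0.5, for genes with a mean count of at least 50. The scaling and 2-fold step was run on simulated data as a check of the calculation. The simulated counts held counting error only, so this check says nothing about spread between animals.

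The 8 genes and the gene lists were chosen with earlier results of these data known. All 8 genes are described in full. From each pathway list up to 4 genes by mean TPM could be named. Notum, Gpc4, Hmga1b and Tut7, which are outside that rule, were chosen after their values were seen.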

Additional observations from a re-analysis of the deposited data

How the results depend on the processing

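The level of Lin28a moved most, from 2.33 to 1.27 TPM with transcripts of at least 1000 nt only. That of Gpc3 was 340.0 TPM both when rescaled to mouse genes and from FPKM. The 8 genes at 1 TPM in both libraries became 3 at 5 TPM, 3 at 1 RPKM on mm9 and 7 with transcripts of at least 1000 nt only, where Igf2bp1 had 0.93 TPM in replicate 1. The Lin28b to Lin28a ratio of 0.640 reversed to 1.77 on counts, 2.31 on mm9 RPKM and 1.17 with transcripts of at least 1000 nt. In the last setting the libraries of the genes overlapped. On counts without length scaling, Igf2bp3 over Igf2bp1 was 3.35, Igf2bp3 over Igf2bp2 2.79, Igf2bp2 over Igf2bp1 1.20, Hmga1 over Hmga2 23.7 and Gpc3 over other glypicans 11.9. On mm9 RPKM, Igf2bp3 over Igf2bp1 was 3.37, Igf2bp2 over Igf2bp1 1.79 and Hmga1 over Hmga2 35.0. With transcripts of at least 1000 nt, Igf2bp3 was 6.63 times Igf2bp1 and 2.27 times Igf2bp2. In these settings, all ratios but Lin28b to Lin28a kept their direction. They did not include a limit to coding transcripts. Between the main coding transcripts the order of Igf2bp2 and Igf2bp1 was the other way, with Igf2bp2-201 at 0.67 and 0.72 TPM and Igf2bp1-201 at 0.92 and 1.27 TPM. The limit to longer transcripts and the removal of the length trend were chosen after seeing the data. No paired analysis was possible because 1 group of 2 libraries has no second group to pair with. Junction reads of Hmga2 and Lin28a are few, which limits how finely their exons can be compared.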
